A study of Mus musculus with 8 samples.

Results

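The tripartite motif (TRIM) genes of the mouse were examined in RNA from the buffy coat, the thin layer of white cells and platelets that forms on red cells when blood is spun. Members were all protein coding genes whose GENCODE M21 name is Trim followed by a number, and there were 68 of them among 35944 genes with a value. Over 24 weeks the mice received either PM2.5 (fine particles from air) or PBS, a salt solution that served as control. The 4 PM2.5 libraries carry the labelled replicate numbers 9, 17, 18 and 21, and the 4 PBS libraries carry 4, 10, 12 and 16. Strain, sex, age, dose and route are not given in the labels. Nor is it stated that every library is a different mouse, and the spread behind each p-value may therefore be partly technical.

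A typical TRIM protein carries a RING domain, B-box zinc fingers and a coiled coil, and most members are E3 ubiquitin ligases: they take ubiquitin from an E2 conjugating enzyme and pass it to a target protein. The part that follows the coiled coil differs between members and sets what they bind, such as viral capsids, antibody-coated particles, histones or microtubules. Many members are induced by interferon and act in defence against viruses, a few work in the nucleus as transcriptional co-regulators, and Trim10 and Trim58 are genes of maturing red cells.

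Each library held 72042685 to 89003605 expected counts that could be assigned to a gene, of which haemoglobin genes took 82.4% to 88.6% and left 9615114 to 12714423 counts for all other genes. Summed erythroid markers (19 of 20 genes in the table, none at 0) reached 17173 to 29318 CPM (counts relative to the TMM-scaled library size) with PM2.5 and 13608 to 22340 with PBS. B cell markers (10 of 10) summed to 38.5 to 49.7 CPM with PM2.5 and 44.7 to 74.3 with PBS, and neutrophil markers (12 of 12) to 28.8 to 56.3 and 14.3 to 27.8. These sums rest on the TMM scaling, and sums relative to library totals were not compared. Every marker in the table had counts in at least 1 library. In a bulk sample, fewer cells of a type and less RNA per cell cannot be told apart.

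Of the 68 members, 35 had enough counts to be tested, 20 had a few counts and 13 had none. The 13 with 0 counts in every library were Trim31, Trim40, Trim42, Trim43b, Trim43c, Trim50, Trim54, Trim60, Trim61, Trim63, Trim67, Trim75 and Trim80. A count of 0 allows up to 3 counts in a library, or 0.0337 to 0.0416 CPM before scaling, an interval for counting error alone. They include the muscle ligases Trim54 and Trim63 and the neuronal Trim67. The 20 with a few counts were Trim6, Trim15, Trim16, Trim17, Trim29, Trim30c, Trim32, Trim34b, Trim38, Trim43a, Trim45, Trim46, Trim47, Trim52, Trim55, Trim66, Trim68, Trim69, Trim71 and Trim72, with at most 59.0 counts over all 8 libraries together, the total of Trim32.

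Among the members with a value, Trim10 stood far above the rest. Levels of different genes were compared per length, as the deposited FPKM (fragments scaled by transcript length and library size) summed over the transcripts of a gene. Trim10 had a mean of 130 FPKM over the 8 libraries (lowest 86.8, highest 182), and it held 73.1% to 78.3% of the FPKM of all 68 members in each library. Trim59, a membrane-anchored member, came next with 10.3 (8.54 to 13.5), and its range did not reach that of Trim10. Below it the ranges of neighbours in the order overlapped: Trim56 had 2.87, Trim24 2.74, Trim26 2.21, Trim28 2.19, Trim12a 1.97 and Trim58 1.89 FPKM. In all, 12 members had a mean of 1 FPKM or more. FPKM relates each gene to a library dominated by haemoglobin, so it was used to rank genes and not to compare groups.

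**Figure D1:**
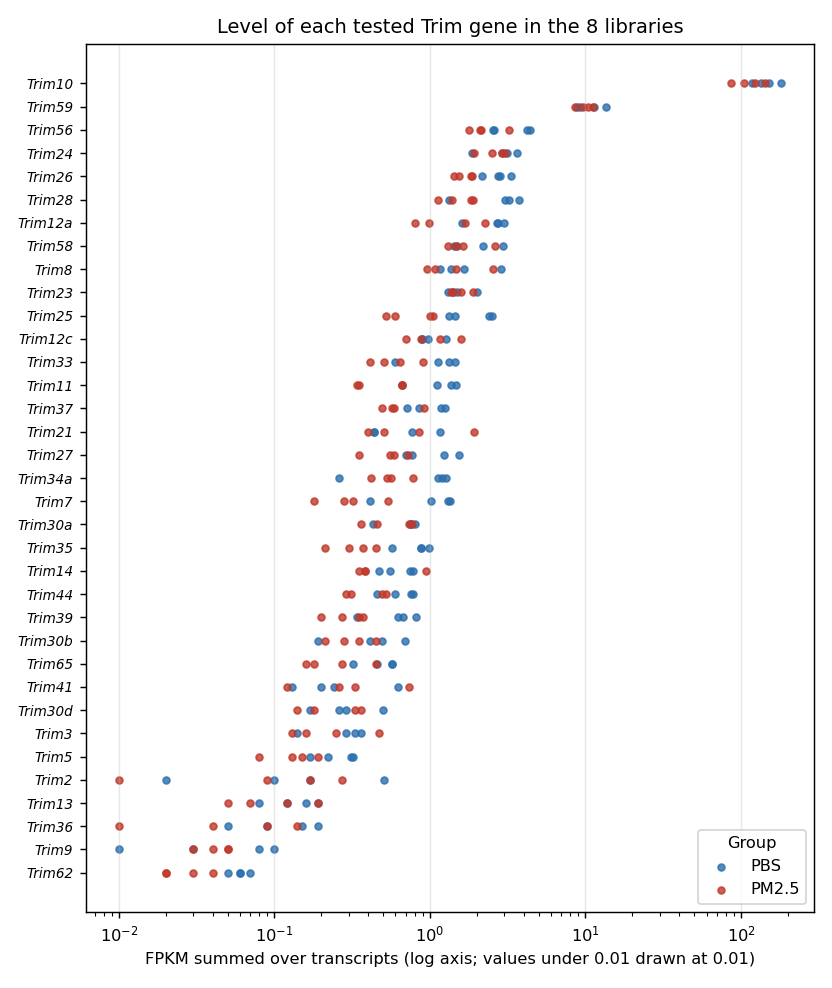
Level of each of the 35 tested Trim genes in the 8 libraries, as FPKM summed over transcripts on a log axis, with 1 point per library coloured by group. Trim10 lies between 86.8 and 182 FPKM, above every other member, and Trim59 follows between 8.54 and 13.5.

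The comparison between PM2.5 and PBS asked which of these genes differed after exposure. Trim7 and Trim25 were lower with PM2.5 and no member was higher past the test (edgeR quasi-likelihood test, two-sided, adjusted p under 0.05 over all 10361 genes tested). The 2 members called lower are 5.71% of the 35 tested, where 1.14% of all genes tested were called lower and 0.463% higher. At an unadjusted p under 0.05 there were 7 members (20%) against 18% of all genes, so by that measure the members lay near the background. Of these, 3 were higher (8.79% of all genes were) and 4 lower (9.24%). The groups did not overlap for 4 members (11.4%), Trim7, Trim25, Trim11 and Trim35, all lower with PM2.5, against 9.66% of all genes in either direction and 6.64% in that one. The median log2 fold change of the tested members was 0.09, beside 0.04 for all genes tested, and 19 members were above 0 and 16 below. The share above 0 was 54.3% of the tested members and 54.4% of all genes tested, so the members lay at the background. The 54.4% is also the reference for the counts above 0 given below for other lists. These shares rest on the scaling. With libraries scaled to their totals the median of all genes moved by -0.57. Only 2 members were then above 0, beside 6.89% of all genes. In that run 4 members were called lower and 0 higher (4.58% and 0.0772% of all genes). Without a filter on low counts, Trim12c and Trim23 were called higher too, where 1.74% of 18035 genes were called higher and 1.72% lower.

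**Figure D2:**
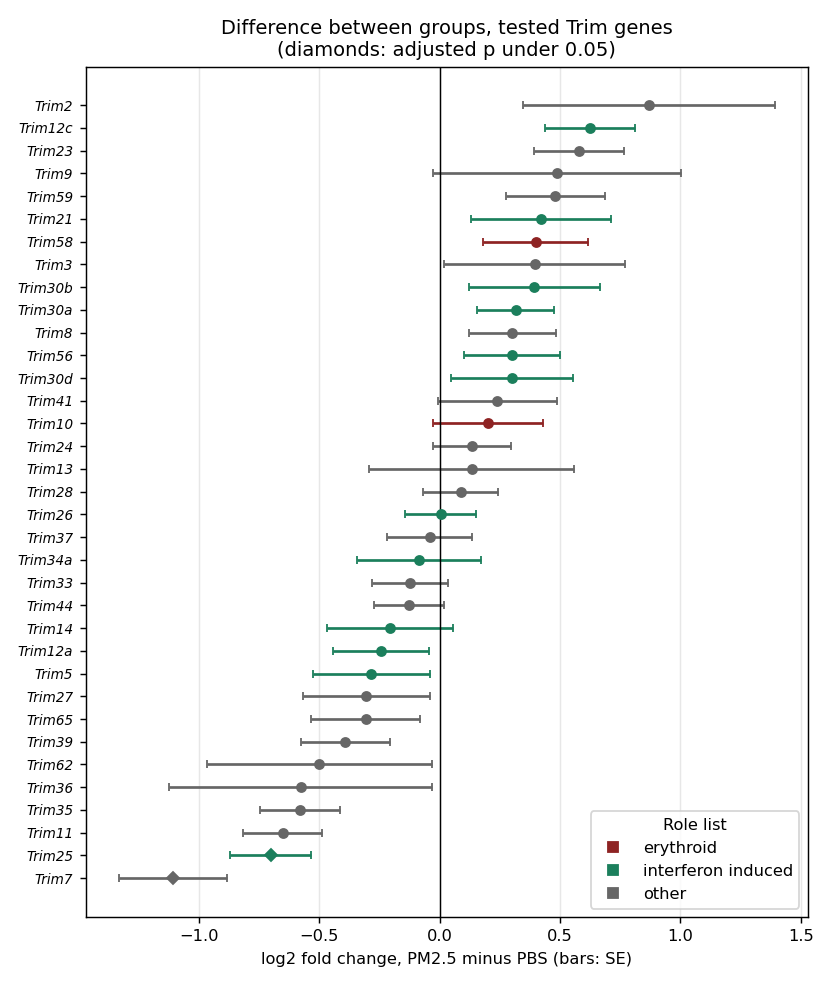
log2 fold change of PM2.5 minus PBS for the 35 tested Trim genes with its SE, coloured by role list, with diamonds for adjusted p under 0.05. Values run from -1.11 for Trim7 to 0.87 for Trim2, and the diamonds are Trim7 and Trim25.

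Trim7 is a ligase that binds glycogenin, the protein that primes glycogen synthesis. The gene lies on chromosome 11 from 48826140 to 48852209 (plus strand, GRCm38). It was at 1.03, 1.04, 0.611 and 0.84 CPM in PM2.5 replicates 9, 17, 18 and 21, and at 2.19, 2.25, 1.19 and 1.98 in PBS replicates 4, 10, 12 and 16. All PM2.5 libraries lay below all PBS libraries, with PBS replicate 12 nearest to them. The means were 0.883 ± 0.204 and 1.9 ± 0.490 CPM (SD, n = 4 each), and the log2 fold change was -1.11 (SE 0.226, adjusted p = 0.0207, edgeR). Leaving out PM2.5 replicate 18 ended the call (adjusted p = 0.0698), and so did leaving out PM2.5 replicate 21 (0.0602), PBS replicate 4 (0.0548) or PBS replicate 10 (0.0893), at log2 fold changes of -0.98 to -1.08.

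The counts of Trim7 were spread over several annotated transcripts, and a large part lay on transcripts not typed as protein coding. Of the 7 transcripts in the table, those typed as protein coding took 72.0%, 38.4%, 68.6% and 20.7% of the counts in PM2.5 replicates 9, 17, 18 and 21, and 31.5%, 41.3%, 47.8% and 25.8% in PBS replicates 4, 10, 12 and 16. The rest lay on transcripts with a retained intron or marked for nonsense-mediated decay. The protein coding transcripts summed to 0.434 ± 0.235 CPM with PM2.5 and 0.675 ± 0.185 with PBS, and the groups overlapped. The other transcripts summed to 0.448 ± 0.243 against 1.23 ± 0.413 CPM (SD, n = 4 each), and these groups overlapped as well. In an exact permutation test (two-sided, 70 arrangements, smallest possible p 0.0286), chosen after the values were seen, the coding transcripts gave p = 0.171 and the others p = 0.0857, both 0.171 adjusted over the pair. When only protein coding transcripts were summed for every gene, Trim7 was at -0.67 and was not called (edgeR adjusted p = 0.428). No member was called in that run, Trim25 included, whose counts all lie on coding transcripts. The lost call is therefore not particular to Trim7. The gene also overlaps Gm12184 on the other strand, which held a mean of 2.12 counts per library. In at least 1 library its summed count was off a whole number by more than 0.1, and with which transcripts outside the sum its reads were shared was not tested.

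**Figure D3:**
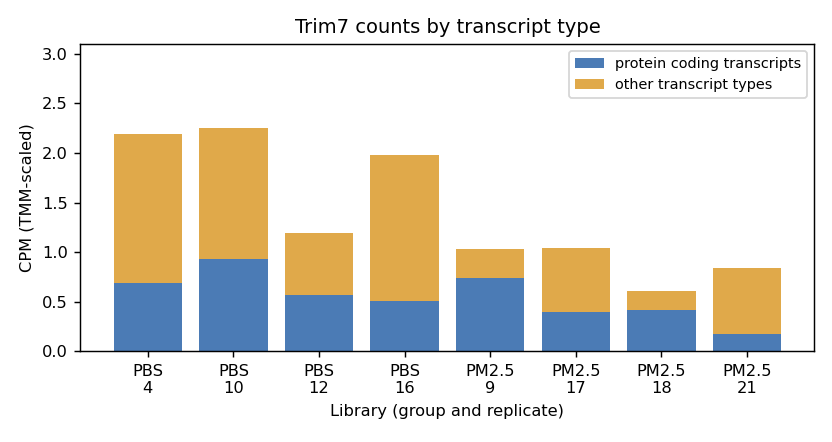
Trim7 counts in each library as CPM, stacked by annotated transcript type (blue, protein coding; ochre, all other types). The coding part is 0.174 to 0.744 CPM with PM2.5 and 0.512 to 0.929 with PBS, and the other part is 0.192 to 0.666 and 0.620 to 1.5.

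Trim25 is the interferon-induced ligase that attaches ubiquitin chains to the viral RNA sensor RIG-I. The gene lies on chromosome 11 from 88999376 to 89020293 (plus strand, GRCm38). It was at 5.02, 4.23, 4.98 and 5.35 CPM in PM2.5 replicates 9, 17, 18 and 21, and at 8.48, 9.33, 8.09 and 5.98 in PBS replicates 4, 10, 12 and 16. PBS replicate 16 was the lowest of its group and still above every PM2.5 library. The means were 4.89 ± 0.470 and 7.97 ± 1.42 CPM (SD, n = 4 each), and edgeR gave -0.70 on the log2 scale (SE 0.167, adjusted p = 0.0444). The adjusted p was close to the threshold, and leaving out any single library but PM2.5 replicate 9 or PBS replicate 16 ended the call (adjusted p = 0.0619 to 0.131, log2 fold changes of -0.64 to -0.75). All its counts fell on coding transcripts, nearly all on a pair of almost equal length (5566 and 5590 bases). Between this pair the estimate moved from library to library, so only the sum is compared here. Trim25 was not called when only coding transcripts were summed for every gene.

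Trim11, another ligase of the family, lies on chromosome 11 from 58978093 to 58991458. It was at 1.84, 1.54, 1.57 and 1.91 CPM with PM2.5 (replicates 9, 17, 18 and 21) and at 2.64, 3.35, 2.46 and 2.38 with PBS (replicates 4, 10, 12 and 16). The groups did not overlap, and the log2 fold change of -0.65 (SE 0.166) missed the threshold (adjusted p = 0.0558, edgeR). DESeq2, which called 2.53% of all genes lower and 1.05% higher, placed it at -0.65 with an adjusted p of 0.0173. It was also called when haemoglobin genes were removed before scaling (adjusted p = 0.0407, with 1.41% of all genes lower).

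Trim35, also known as Hls5 from its study in the switch between blood lineages, lies on chromosome 14 from 66297031 to 66311424. It was at 1.12, 1.47, 1.09 and 1.31 CPM with PM2.5 (replicates 9, 17, 18 and 21) and at 1.73, 1.89, 1.93 and 1.89 with PBS (replicates 4, 10, 12 and 16). The PBS libraries were close together and all above the PM2.5 libraries. The log2 fold change was -0.58 (SE 0.167, adjusted p = 0.0916 with edgeR and 0.0454 with DESeq2). The B cell markers moved in the same direction as these 4 genes: all 10 were below 0, with a median of -0.38 and 3 called lower (1.14% of all genes were). With the mean of the erythroid markers in the model, Trim7 was at -0.79 (adjusted p = 0.535), Trim25 at -0.51 (0.555), Trim11 at -0.38 (0.638) and Trim35 at -0.68 (0.478), and edgeR then called 0 of all genes (866 at an unadjusted p under 0.05). The erythroid mean is itself on the TMM scale, and the part of cell composition in these differences was not tested further.

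**Figure D4:**
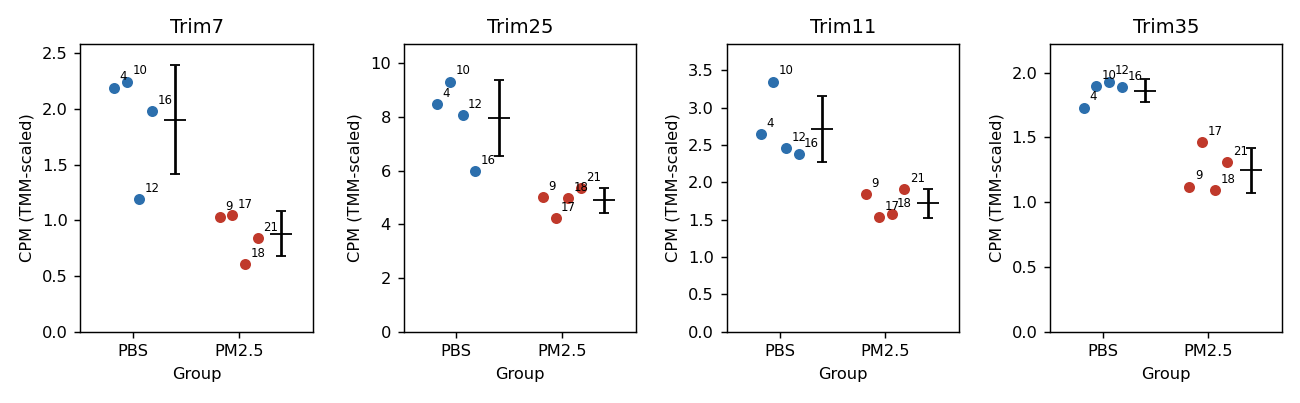
CPM of Trim7, Trim25, Trim11 and Trim35 in each library, with replicate numbers, and the mean and SD (black, n = 4) of each group. In each panel all PM2.5 points lie below all PBS points, for Trim7 at most 1.04 against at least 1.19 CPM.

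The erythroid members did not pass the test. Trim10, also named Herf1, is required for terminal maturation of erythroid cells in culture, and Trim58 is a ligase induced late in erythropoiesis that targets the motor protein dynein. Trim10 was at 216, 317, 265 and 282 CPM in PM2.5 replicates 9, 17, 18 and 21 and at 196, 193, 276 and 275 in PBS replicates 4, 10, 12 and 16. The groups overlapped, with PBS replicates 12 and 16 above PM2.5 replicates 9 and 18. The log2 fold change was 0.20 (SE 0.227, adjusted p = 0.663, edgeR). Trim58 was at 2.53, 3.87, 4.85 and 5.02 CPM with PM2.5 (replicates 9, 17, 18 and 21) and at 3.71, 1.99, 3.4 and 3.23 with PBS (replicates 4, 10, 12 and 16). PM2.5 replicate 9 lay within the PBS range, and the log2 fold change was 0.40 (SE 0.219, adjusted p = 0.340).

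Both genes have a single transcript in the table, and every count fell on it. The level of Trim10 per length was 51.3 to 94.5 times that of Trim58, with the lowest and the highest ratio both in PBS libraries (replicates 4 and 10). The erythroid markers were tested for 19 of 20 genes: 18 were above 0 and 0 were called (9 at an unadjusted p under 0.05), with a median log2 fold change of 0.53. These directions rest on the TMM scaling. PM2.5 replicate 17 held 17301 counts of Trim10 among 84791647, and PBS replicate 4 held 21398 among 72042685. On the TMM scale they were at 317 and 196 CPM. With the mean of the erythroid markers in the model the direction turned, to -0.15 for Trim10 (adjusted p = 0.867) and -0.10 for Trim58 (0.941). Of 8 genes of dynein, the complex that Trim58 targets, and its cofactor dynactin (Dctn1), 6 were above 0 and 0 were called (1 at an unadjusted p under 0.05). The light chain genes Dynlt1b, at 0.38 (SE 0.181), and Dynll1, at 0.38 (SE 0.184), had the smallest p-values, followed by Dync1li2 at 0.24 (SE 0.203).

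**Figure D5:**
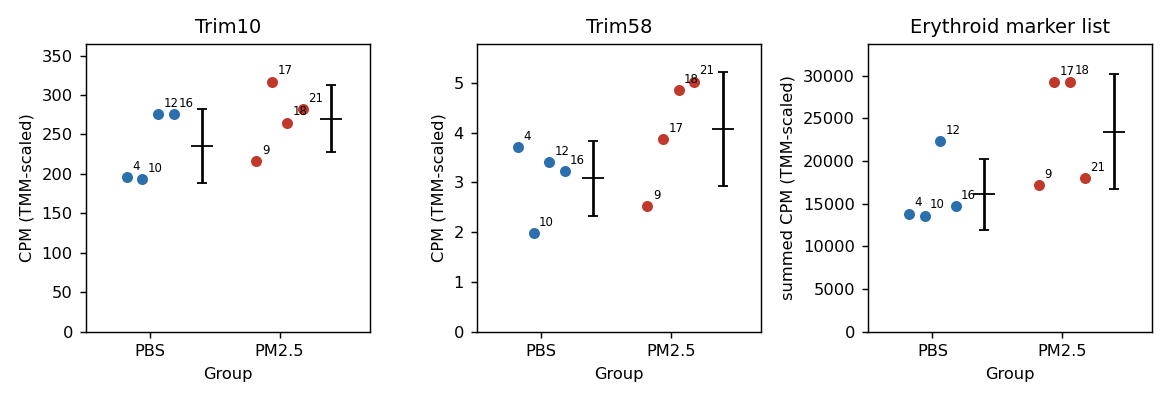
Trim10, Trim58 and the summed erythroid marker list in each library as CPM, with replicate numbers, and the mean and SD (black, n = 4) of each group. The groups overlap in all panels. On this TMM scale PM2.5 replicates 17 and 18 have the highest erythroid sums, up to 29318 CPM.

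The sequence before the start of Trim10 is shown because the gene carries most of the family's transcript level. RefSeq promoters (GRCm38.p6, the 250 bases before each start) were given for 27 of the 35 tested members and 53 of all 68. They were searched on both strands for AGATAA, a form of the core bound by GATA factors, which reads TTATCT on the other strand. Other forms of that core were not searched for. Among the tested members the promoter of Trim10 alone held it, 1 of 37 windows, against 9.99% of 32851 promoters of all genes. The match, in capitals, begins 163 bases before the start, and the sequence reads 5′ to 3′ along the gene. The window of Trim58 held no match to these letters, though it holds the related AGATAG, which was not searched for. A match is a description of letters and not evidence of binding.
Trim10, chr17:36869324-36869573 (plus strand): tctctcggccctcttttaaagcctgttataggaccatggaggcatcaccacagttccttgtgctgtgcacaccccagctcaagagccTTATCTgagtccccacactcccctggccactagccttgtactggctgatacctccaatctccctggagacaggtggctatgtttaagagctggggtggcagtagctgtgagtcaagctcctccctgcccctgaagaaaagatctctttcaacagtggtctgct

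Trim10 sits in a cluster of 5 members on chromosome 17 between 36837134 and 36910214, with Trim26, Trim15, Trim40 and Trim31. Its neighbours on either side were nearly silent: Trim15 had 12 counts over all 8 libraries, and Trim40 and Trim31 had 0. Trim26 was at 3.62 to 4.31 CPM with PM2.5 and 3.47 to 4.29 with PBS.

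Of the 16 members listed as interferon-induced, 12 could be tested, and Trim30c, Trim34b, Trim38 and Trim6 had too few counts. Trim25, described above, was called lower and none was called higher. Of the 12, 7 were above 0 and 5 below, with a median log2 fold change of 0.15. On the TMM scale 16 of 17 tested interferon-response genes that are not Trim genes were above 0 (54.4% of all genes were), with a median of 0.48. This direction rests on that scaling, as with library totals the median of all genes moved by -0.57. Of the 17 genes 0 were called, and 8 had an unadjusted p under 0.05 (18% of all genes did). Among them Usp18, which removes the ubiquitin-like modifier ISG15, was at 0.93 (SE 0.253, adjusted p = 0.0740), Oasl2 at 1.00 (SE 0.277, 0.0804) and Rtp4 at 1.21 (SE 0.355, 0.0965; edgeR). DESeq2, which called 1.05% of all genes higher, called all 3 (adjusted p = 0.0362, 0.0417 and 0.0372). They were picked for the smallest p-values of the list in the same counts, so these calls are no separate support. On the same TMM scale neutrophil markers (5 of 8 tested called higher) and monocyte markers (3 of 9) were higher, where edgeR called 0.463% of all genes higher. The monocyte markers summed to 122 to 190 CPM with PM2.5 and 93.4 to 139 with PBS. The part of these cells in the interferon-response values was not tested.

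The interferon-induced member with the next smallest p was Trim12c, a mouse counterpart of the retrovirus restriction factor TRIM5. It was at 3.11, 3.97, 3.61 and 4.79 CPM in PM2.5 replicates 9, 17, 18 and 21 and at 1.98, 2.03, 3.18 and 2.87 in PBS replicates 4, 10, 12 and 16. PM2.5 replicate 9 lay below PBS replicate 12, and the other PM2.5 libraries lay above all PBS libraries. The log2 fold change was 0.63 (SE 0.187, adjusted p = 0.104, edgeR). Its close relative Trim12a was at 1.44 to 3.22 CPM with PM2.5 and 2.27 to 3.02 with PBS, which gave -0.24 on the log2 scale (SE 0.200, adjusted p = 0.526), and Trim5 was at -0.28 (SE 0.244, adjusted p = 0.548). Whether Trim12c differed from these relatives was not tested.

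Trim30a, which restrains NF-kB signalling below Toll-like receptors, was at 2.28, 2.47, 1.99 and 2.70 CPM with PM2.5 (replicates 9, 17, 18 and 21) and at 1.73, 1.88, 1.80 and 2.17 with PBS (replicates 4, 10, 12 and 16). PBS replicate 16 lay above PM2.5 replicate 18, and the log2 fold change was 0.32 (SE 0.160, adjusted p = 0.302). Its relatives Trim30b and Trim30d were at 0.39 (SE 0.273) and 0.30 (SE 0.253). Trim30b was highest in PM2.5 replicate 17 at 2.18 CPM, with the other PM2.5 libraries at 0.760 to 1.05. Leaving out that replicate had to lower its log2 fold change, which was then -0.003.

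Trim56, a ligase that acts on the DNA sensing pathway, was at 10.4, 17.1, 17.5 and 16.1 CPM with PM2.5 (replicates 9, 17, 18 and 21) and at 12.7, 9.19, 13.4 and 14.2 with PBS (replicates 4, 10, 12 and 16). PM2.5 replicate 9 lay below 3 of the 4 PBS libraries, and the log2 fold change was 0.30 (SE 0.200, adjusted p = 0.428). Trim21, the cytosolic antibody receptor, was at 0.403 to 0.974 CPM with PM2.5 and 0.364 to 0.563 with PBS, a difference on the log2 scale of 0.42 (SE 0.290). Its protein coding transcripts had means of 0.306 CPM with PM2.5 and 0.321 with PBS. Its other transcripts, with a retained intron, had means of 0.308 ± 0.200 and 0.144 ± 0.0714 CPM (SD, n = 4 each). Those groups overlapped, and PM2.5 replicate 21 was the highest at 0.607 CPM. Trim14 was at -0.21 (SE 0.261), Trim34a at -0.09 (SE 0.258) and Trim26 at 0.00 (SE 0.147), and their groups overlapped.

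The cluster on chromosome 7 between 104218793 and 104507849 holds 10 members, Trim6, Trim34a, Trim5, Trim12a, Trim34b, Trim12c, Trim30b, Trim30c, Trim30a and Trim30d, of which 7 were tested. These genes arose by duplication and share sequence. The summed count of a gene was off a whole number by more than 0.1 in at least 1 library for 9 tested members, and 6 of them, Trim12a, Trim12c, Trim30a, Trim30d, Trim34a and Trim5, lie in this cluster. The others are Trim7, Trim24 and Trim56. In such a sum a read can be divided with another gene or with a transcript left out as unmatched. These were not told apart, and the values of these genes are uncertain.

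Promoters of the interferon-induced members are shown because this set is defined by its response to a signal. The core of the interferon-stimulated response element was searched on both strands as a pair of GAAA blocks with any 2 bases between them, which reads as a pair of TTTC blocks on the other strand. Of 15 interferon-induced members with a RefSeq promoter, 5 held it (5 of 16 windows), against 2.98% of 32851 promoters of all genes. These were Trim12c, Trim5, Trim26, Trim30a and Trim30d, and no other member with a promoter in the table, 53 in all, held it. In Trim12c and Trim5 the matched letters were the same, TTTCTGTTTC, beginning 29 and 49 bases before the start. These genes are relatives whose windows share long stretches, so their matches are not separate observations. The window of Trim12a shares such a stretch but ends before the matched letters. In Trim26 a pair of overlapping matches began 160 and 154 bases before the start. In Trim30a a match began 36 bases before the start in the window printed below. Its other window, chr7:104446126-104446375, held none. Trim30d held the same letters as Trim30a, TTTCTTTTTC, from 41 bases before its start. Their windows are alike too, so these matches are not separate either. The window of Trim25 held no match to these letters, which says nothing of the factor. Capitals mark the matches, and sequences read 5′ to 3′ along the gene.
Trim12c, chr7:104353350-104353599 (minus strand): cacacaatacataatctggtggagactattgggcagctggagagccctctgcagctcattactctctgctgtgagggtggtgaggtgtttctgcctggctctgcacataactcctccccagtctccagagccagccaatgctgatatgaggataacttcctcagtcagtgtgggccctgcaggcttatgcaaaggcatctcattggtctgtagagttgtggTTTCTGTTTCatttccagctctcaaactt
Trim5, chr7:104288107-104288356 (minus strand): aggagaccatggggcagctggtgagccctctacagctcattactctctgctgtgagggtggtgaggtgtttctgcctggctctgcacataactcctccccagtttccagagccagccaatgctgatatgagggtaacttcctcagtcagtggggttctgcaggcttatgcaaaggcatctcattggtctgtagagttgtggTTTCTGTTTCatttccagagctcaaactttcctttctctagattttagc
Trim26, chr17:36836896-36837145 (plus strand): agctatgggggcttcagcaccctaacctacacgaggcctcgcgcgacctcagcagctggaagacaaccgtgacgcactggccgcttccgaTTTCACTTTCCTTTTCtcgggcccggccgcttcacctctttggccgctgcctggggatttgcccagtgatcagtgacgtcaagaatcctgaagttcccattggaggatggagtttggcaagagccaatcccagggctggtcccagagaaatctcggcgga
Trim30a, chr7:104465194-104465443 (minus strand): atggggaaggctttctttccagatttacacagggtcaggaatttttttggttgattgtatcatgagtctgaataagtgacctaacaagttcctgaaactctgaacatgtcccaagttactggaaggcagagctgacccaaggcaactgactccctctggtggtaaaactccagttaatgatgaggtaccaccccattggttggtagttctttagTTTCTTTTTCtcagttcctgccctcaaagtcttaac
Trim25, chr11:88999153-88999402 (plus strand): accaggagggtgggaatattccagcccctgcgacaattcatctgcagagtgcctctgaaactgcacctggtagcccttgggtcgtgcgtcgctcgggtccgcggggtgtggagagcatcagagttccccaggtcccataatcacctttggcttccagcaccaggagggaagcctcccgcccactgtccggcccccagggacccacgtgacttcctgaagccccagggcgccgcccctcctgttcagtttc

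The members with these letters had log2 fold changes of 0.63 (Trim12c), 0.32 (Trim30a), 0.30 (Trim30d), 0.00 (Trim26) and -0.28 (Trim5). None passed the test, and whether they share a direction was not tested.

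Members that regulate nucleic acid sensing were tested for 3 of 6 genes, and 0 were called (1 at an unadjusted p under 0.05). Trim23, which joins a RING ligase to a GTPase domain of the ARF family, was at 5.36, 7.68, 6.68 and 4.42 CPM with PM2.5 (replicates 9, 17, 18 and 21) and at 4.24, 3.26, 4.93 and 3.70 with PBS (replicates 4, 10, 12 and 16). PBS replicate 12 lay above PM2.5 replicate 21, and the log2 fold change was 0.58 (SE 0.187, adjusted p = 0.124). When PM2.5 replicates 17 and 18 were left out together the value was 0.29 (adjusted p = 0.648), and when 9 and 21 were, 0.81 (0.0542). Replicates 17 and 18 held its highest PM2.5 values, so the direction of both shifts was fixed beforehand. The other members of this list, Trim13 and Trim65, were at 0.13 (SE 0.426) and -0.31 (SE 0.228). Of 18 genes of the RNA and DNA sensing pathway itself, 16 were tested, 9 were above 0 with a median of 0.24, and 0 were called (6 at an unadjusted p under 0.05). Irf7, the transcription factor that amplifies interferon production, was at 0.94 (SE 0.296, adjusted p = 0.117), the RNA sensor Ifih1 at 0.69 (SE 0.230, 0.139) and Dhx58 at 0.87 (SE 0.315, 0.172; edgeR).

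The nuclear members Trim24, Trim28 and Trim33, co-regulators of transcription with a bromodomain, lay between -0.12 and 0.13 on the log2 scale. Trim28, the corepressor recruited by KRAB zinc finger proteins, was at 3.71 to 5.50 CPM with PM2.5 and 3.79 to 4.23 with PBS, a difference on the log2 scale of 0.09 (SE 0.157). Trim24 was at 0.13 (SE 0.162) and Trim33 at -0.12 (SE 0.158), and none passed. Of 11 partners of Trim28 in silencing, 5 were above 0 and 0 were called (1 at an unadjusted p under 0.05). The histone-binding Rbbp7 was at -0.37 (SE 0.165), the remodeller Chd4 at -0.27 (SE 0.153) and the heterochromatin protein gene Cbx3 at -0.20 (SE 0.153). For these 3 of the 11 genes the groups did not overlap, against 9.66% of all genes in either direction and 6.64% in that one.

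Among the remaining members, Trim59 was at 22.9, 37.8, 30.3 and 23.4 CPM with PM2.5 (replicates 9, 17, 18 and 21) and at 20.4, 16.6, 25.3 and 19.8 with PBS (replicates 4, 10, 12 and 16). PBS replicate 12 lay above PM2.5 replicates 9 and 21, and the log2 fold change was 0.48 (SE 0.205, adjusted p = 0.234). Trim8, a regulator of cytokine signalling, was at 0.30 (SE 0.181) and Trim39 at -0.39 (SE 0.186), with groups that overlapped. Trim41, the neighbour of Trim7 on chromosome 11, was at 0.24 (SE 0.246). The tested members not described so far, Trim3, Trim9, Trim27, Trim36, Trim37, Trim44 and Trim62, lay between -0.58 (Trim36) and 0.49 (Trim9), and their groups overlapped.

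Trim2, a ligase of neurons, had the highest log2 fold change of all tested members, 0.87, with the wide SE of 0.523 (adjusted p = 0.381). It was at 0.0747, 0.312, 0.537 and 0.190 CPM in PM2.5 replicates 9, 17, 18 and 21 and at 0.0732, 0.177, 0.230 and 0.118 in PBS replicates 4, 10, 12 and 16. PM2.5 replicates 17 and 18 were the highest. The 9 brain markers too low to test, among them Camk2a, Snap25 and Syt1, summed to 193 and 221 counts in those libraries and to 3 to 19 counts in each other library. All 14 brain markers together, which include Nrgn with 1797 to 5784 counts, did not set those libraries apart: they summed to 51.7 to 88.7 CPM with PM2.5, highest in replicate 9, and 38.5 to 69.9 with PBS. Without PM2.5 replicates 17 and 18 Trim2 was at -0.15 (adjusted p = 0.958). A fall had to follow, as these held its highest values. Whether Trim2 and the brain markers are linked was not tested.

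Family members with other names did not pass either. Of Mid1, Mid2, Pml, Mefv and Rnf207, 3 were tested: Mefv, which encodes the inflammasome protein pyrin, was at 0.88 (SE 0.388, adjusted p = 0.248), Mid1 at 0.26 (SE 0.261) and Pml, the organiser of nuclear bodies, at -0.05 (SE 0.164). Of 11 E2 enzymes and E2-like proteins that work with TRIM ligases, 10 were tested, 6 were above 0 and 0 were called (0 at an unadjusted p under 0.05). Ube2e3 was at 0.47 (SE 0.230), Ube2v1 at 0.30 (SE 0.157) and Ube2d3 at 0.28 (SE 0.200).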

How the data were processed

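RNA-seq was measured in 8 buffy coat libraries, 4 per group. The submitters' processing notes list HISAT2 2.0.1, cutadapt 1.9.1 and bcl2fastq 2.17.1.14, with build GRCm38. The counting tool was not given in the sources used here. Whether it used strand was not stated either, and reads of genes that overlap on opposite strands may be mixed. The deposited values were expected counts, that is estimated counts per transcript that the authors left without normalization (24.5% are not whole). FPKM, per the file headers, is the authors' second value per transcript, relative to its length and the library's size.

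Of 118783 transcripts, 116710 matched GENCODE M21 and were summed to genes, and the 2073 left out held 0.0266% to 0.0532% of the counts of a library. All pairs of libraries differed by more than sampling noise. Sums were rounded, and edgeR 4.0.16 (R 4.3.3) fitted the group alone: quasi-likelihood, filterByExpr with a minimum count of 10 and total of 15, TMM, Benjamini-Hochberg over 10361 genes. SE is the log2 fold change over the square root of F. The fit was also run on counts simulated from its own means and spread, and that run is not used as support here. Alternatives used DESeq2 1.42.0 and limma 3.58.1 on log2(FPKM + 1) and log2(FPKM + 0.1).

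The members and lists were chosen with earlier results of these data known. Named members are the tested erythroid and interferon-induced lists, all past adjusted p 0.05, the 12 of smallest p and the 8 of highest FPKM; from the other lists, up to 3 genes of smallest p. Every other gene named here, such as Trim41, the untested members and the brain markers, was chosen after its values were seen. Ahsp is not analysed here, and Mb21d1 was matched under its name Cgas.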

Additional observations from a re-analysis of the deposited data

Results flagged for a closer look

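In each group of 4 libraries, the named genes and the haemoglobin share were checked for a single library far from the other libraries of its group (gap to the nearest over the whole range above Dixon's 95% critical value). Of 86 groups checked 4 held one, and chance gives about 1 in 20. Trim28 was at 5.50 CPM in PM2.5 replicate 17, with the other PM2.5 libraries at 3.71 to 3.99. Trim30d was at 0.715 CPM in PBS replicate 16, with the others at 0.421 to 0.466. Trim34a was at 0.728 CPM in PBS replicate 12, with the others at 1.91 to 1.97. Irf7 was at 22.3 CPM in PM2.5 replicate 9, with the others at 38.2 to 40.4.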

How the results depend on the processing

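No paired analysis was possible because the groups share no replicate numbers. Trim7 and Trim25 stayed below 0 in every alternative run, but their calls did not last in all of them. The count of members called lower was 0 with protein coding transcripts only, with the erythroid mean as covariate, in both limma fits (11 members tested, Trim7 not among them), and without PM2.5 replicates 17 and 18, or 9 and 21, together. It was 4 in DESeq2, with totals as scaling and at a threshold of 0.1, and 0 to 3 with 1 library left out. Members called higher numbered 2 without a filter and 0 otherwise. Over all genes, 48 were higher and 118 lower, and these counts were 109 and 262 in DESeq2, 8 and 475 with library totals, 313 and 311 without a filter, 10 and 39 with coding transcripts only, and 0 and 0 in both limma fits and with the covariate. They were 5 and 3 without PM2.5 replicates 17 and 18, with 108 higher without 9 and 21, and 6 to 66 and 25 to 134 with 1 library left out. Where a scaling moved the median of all genes by over 0.1 (-0.57, -0.32 and -0.42 for totals and the limma fits), log2 values here are relative to that shift. With at least 50 counts required in 4 libraries, the direction turned for Trim26 (-0.00037). With the erythroid mean as covariate, the direction turned for Dync1li2 (-0.16), Dynll1 (-0.0076), Pml (0.064), Trim10 (-0.15), Trim14 (0.10), Trim2 (-0.10), Trim26 (-0.13), Trim28 (-0.097), Trim56 (-0.18), Trim58 (-0.099), Ube2d3 (-0.033) and Ube2e3 (-0.081). With haemoglobin genes removed before scaling, the direction turned for Trim26 (-0.027). Without PM2.5 replicates 17 and 18 together, the direction turned for Dync1li2 (-0.069), Pml (0.055), Trim12a (0.0067), Trim2 (-0.15), Trim24 (-0.014), Trim26 (-0.035), Trim28 (-0.053) and Trim30b (-0.051). In limma on log2(FPKM + 0.1), the direction turned for Trim26 (-0.27), Trim28 (-0.33) and Trim56 (-0.11). In limma on log2(FPKM + 1), the direction turned for Trim10 (-0.041), Trim26 (-0.17), Trim28 (-0.22) and Trim56 (-0.086). Without a filter, the direction turned for Trim26 (-0.016). With protein coding transcripts only, the direction turned for Trim21 (-0.11). With 1 library left out, the direction turned at least once for Pml (-0.18 to 0.055), Trim26 (-0.094 to 0.048), Trim28 (-0.055 to 0.13), Trim30b (-0.0025 to 0.58) and Trim34a (-0.32 to 0.011). None of these genes was called in the reported test, and for each change the cause was not tested. PM2.5 replicates 17 and 18 were left out as a pair, and 9 and 21 as their counterpart. Replicates 17 and 18 had the most counts of the 9 untested brain markers and, on the TMM scale, the highest erythroid sums. The sum over all 14 brain markers was highest in PM2.5 replicate 9 (88.7 CPM). Depth limits Trim2, Trim9, Trim13, Trim36 and Trim62, with 95 to 125 counts over all 8 libraries.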

Other observations

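For most tested members the counts lay on protein coding transcripts: the share was 90% or more in 23 of 35, averaged over libraries, and under 50% in Trim7, Trim14 and Trim26. The coding transcripts of Trim26 took 60.0%, 39.8%, 20.8% and 78.7% of its counts in PM2.5 replicates 9, 17, 18 and 21 and 27.6%, 35.3%, 29.8% and 35.2% in PBS replicates 4, 10, 12 and 16. The gene has 10 transcripts in the table, and how the estimate divides reads among them was not tested.

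Trim41 overlaps Rack1, a gene of the ribosome on the opposite strand with a mean of 3365 counts per library, so reads of Rack1 could enter its count where strand was not used. Trim14 overlaps Nans in the same way (a mean of 44.0 counts), and Trim28 overlaps Zbtb45 (16.3).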
